A study of Mus musculus with 40 samples.

Results

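Galectins are lectins that bind galactose-containing sugar chains, and the gut makes several of them. The members described here are the 5 galectin genes Lgals1, Lgals2, Lgals3, Lgals4 and Lgals9. The members were chosen with earlier results of these data known. Their probes were taken by gene symbol alone, as all probes that the annotation of the array platform assigned to these symbols. This gave 8 probes, 1 each for Lgals1, Lgals2 and Lgals3, 3 for Lgals4 and 2 for Lgals9, of 25697 probes for 16593 symbols on the array. The probes used for the genes were ILMN_2619107 (Lgals1), ILMN_2641371 (Lgals2), ILMN_1223317 (Lgals3), ILMN_2968211 (Lgals4) and ILMN_2752873 (Lgals9). All 8 passed the filter on dim signals in both tissues.

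The study measured RNA from frozen colon and small intestinal tissue of 20 female mice aged 9 weeks, kept free of specific pathogens, on Illumina MouseRef-8 arrays, 1 array per tissue sample. Mice received the probiotic mixture VSL#3, a blend of live gut bacteria suspended in PBS, or PBS alone, as 200 µl by gavage 3 times per week for 4 weeks. The 8 groups were BALB/c VSL#3, BALB/c PBS, C57BL/6 VSL#3 and C57BL/6 PBS mice, each with colon and small intestine, with 5 mice in each group. The labels name no engineered allele, and the 2 inbred strains came from different suppliers, so strain and supplier cannot be told apart.

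Galectins carry a conserved carbohydrate recognition domain, are made without a classical signal peptide, and reach the cell surface or act inside the cell. Galectin-1 and galectin-2 are of the prototype form with a single domain, galectin-3 is the chimera form with a long tail ahead of its domain, and galectin-4 and galectin-9 are of the tandem-repeat form with a pair of different domains. In the gut, galectin-4 is known as a brush border lectin that clusters glycoproteins in membrane rafts, galectin-3 as an epithelial and macrophage lectin with a role in apical sorting, galectin-1 as a lectin of stroma and muscle, and galectin-9 as an interferon-inducible lectin that binds the T cell receptor protein Tim-3.

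The promoters are shown because the members split by gut region, with Lgals2 and Lgals9 on one side and Lgals3 and Lgals4 on the other. The RefSeq promoter table (build GRCm38.p6) held 4 of the 5 members, and the 250 bases ahead of each gene's start are printed 5′ to 3′ on the strand of the gene, with motif matches in capitals.
Lgals2 (chr15:78855530-78855779, minus strand): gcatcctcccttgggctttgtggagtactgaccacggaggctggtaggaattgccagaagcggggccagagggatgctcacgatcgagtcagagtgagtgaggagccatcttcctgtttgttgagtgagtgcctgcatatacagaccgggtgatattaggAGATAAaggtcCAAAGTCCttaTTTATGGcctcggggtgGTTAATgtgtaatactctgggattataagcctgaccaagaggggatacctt
Lgals9 (chr11:78984925-78985174, minus strand): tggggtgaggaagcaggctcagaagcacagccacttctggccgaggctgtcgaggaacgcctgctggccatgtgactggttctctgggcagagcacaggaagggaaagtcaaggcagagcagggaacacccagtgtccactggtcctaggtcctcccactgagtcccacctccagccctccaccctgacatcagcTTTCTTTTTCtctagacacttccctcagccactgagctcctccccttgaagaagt
Lgals3 (chr14:47373610-47373859, plus strand): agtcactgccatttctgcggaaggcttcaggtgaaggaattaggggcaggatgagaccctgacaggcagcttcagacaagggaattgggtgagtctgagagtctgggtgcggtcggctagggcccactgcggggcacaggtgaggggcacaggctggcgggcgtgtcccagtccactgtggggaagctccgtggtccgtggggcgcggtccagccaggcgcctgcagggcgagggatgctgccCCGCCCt
Lgals4 (chr7:28833544-28833793, plus strand): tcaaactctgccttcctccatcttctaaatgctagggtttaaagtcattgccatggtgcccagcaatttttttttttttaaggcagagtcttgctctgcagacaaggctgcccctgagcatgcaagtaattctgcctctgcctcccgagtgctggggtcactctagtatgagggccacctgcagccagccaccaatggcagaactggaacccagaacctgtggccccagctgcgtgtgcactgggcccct
The motifs were chosen after the sequences had been seen and were searched on both strands. For factors of intestinal epithelium, the HNF4 type was read as CAAAGTCC. The CDX type was read as TTTATNG. The GATA type was read as AGATAA, and the HNF1 type as GTTAAT. The interferon response element type was a pair of GAAA runs with any 2 bases between them, and the STAT type was TTC followed by any 3 bases and then GAA. The GC box was read as GGGCGG and the TATA type as TATAAA. The Lgals2 window held 4 matches that did not overlap one another, the GATA type beginning 90, the HNF4 type 79, the CDX type 68 and the HNF1 type 51 bases before the start. The Lgals9 window held the interferon response element type on the opposite strand, beginning 55 bases before the start, and the Lgals3 window held a GC box on the opposite strand 7 bases before the start. The Lgals4 window held none of these letters. Of all 32851 promoter windows of the same length, 1.2% held the HNF4 type, 9.81% the CDX type, 9.99% the GATA type, 6.43% the HNF1 type, 2.98% the interferon type, 7.02% the STAT type, 32.7% the GC box and 12.4% the TATA type. The Lgals3 window had 66% G and C, against 58.4% for Lgals9, 53.6% for Lgals4 and 50.8% for Lgals2. A match of letters is a description of the sequence and was not tested for binding.

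An array detected from 46.3% to 52.6% of its probes at a detection p under 0.05, and replicate arrays of a group correlated with an r between 0.97 and 0.99. Marker genes went with the labels: the sucrase-isomaltase gene Sis ranged over 4.44 to 7.05 on colon arrays, against 13.03 to 13.84 on small intestinal ones, the water channel gene Aqp8 over 11.07 to 11.58 on colon arrays, against 4.67 to 5.92 on small intestinal ones, and the MHC class II gene H2-Ea between 11.78 and 13.57 in BALB/c and between 4.66 and 6.98 in C57BL/6. Signals are log2 of the background-corrected intensity after quantile normalization over the 40 arrays, and differences are log2 differences. All 10 VSL#3 colon columns of the authors' normalized table were nearest, by their values, to an unnormalized array labelled with the opposite strain, whereas the other 30 columns were nearest to their own. The values here therefore come from the unnormalized table, in which H2-Ea goes with the strain label on all 40 arrays. The summed signal of 8 pancreatic acinar markers spread widely over colon arrays, 11.18 to 16.94 in BALB/c VSL#3, 11.49 to 14.51 in BALB/c PBS, 11.70 to 12.84 in C57BL/6 VSL#3 and 11.67 to 16.85 in C57BL/6 PBS mice, and its part in galectin signals was not tested.

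Lgals2 was the member with the widest range, a small intestinal gene that was close to background in colon. It encodes galectin-2, which in humans binds the cytokine lymphotoxin-alpha. In colon it read 5.07, 5.11, 5.81, 5.93 and 5.00 in BALB/c VSL#3 mice and 5.36, 5.32, 5.33, 4.66 and 5.77 in BALB/c PBS mice. In C57BL/6 colon it read 5.95, 5.65, 6.15, 6.00 and 5.24 with VSL#3 and 5.38, 6.63, 5.76, 6.39 and 6.10 with PBS. These are dim signals, detected on 3 of 5 BALB/c VSL#3, 4 of 5 BALB/c PBS and all C57BL/6 colon arrays.

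In small intestine Lgals2 read 13.17, 13.34, 13.39, 13.03 and 13.21 in BALB/c VSL#3 mice and 13.20, 13.35, 13.30, 13.33 and 13.21 in BALB/c PBS mice. In C57BL/6 small intestine it read 12.98, 13.09, 13.10, 12.95 and 13.03 with VSL#3 and 12.91, 12.86, 13.27, 12.87 and 13.15 with PBS. No colon array came near any small intestinal array. Within each mouse, colon lay below small intestine in 20 of 20 mice, by between −8.67 and −6.23. The mean difference, colon minus small intestine, was −7.84 in BALB/c VSL#3, −7.99 in BALB/c PBS, −7.23 in C57BL/6 VSL#3 and −6.96 in C57BL/6 PBS mice (SE 0.20, n = 5 mice each, limma on the paired differences, largest adjusted p 2.28e-16). These differences correspond to between 124-fold and 254-fold, but the colon end lies near the background of the array, so the folds are not exact. Under the other settings the differences reached −8.65 in BALB/c VSL#3, −9.21 in BALB/c PBS, −8.48 in C57BL/6 VSL#3 and −7.41 in C57BL/6 PBS mice, the first with no background correction and the others in the authors' deposited table. The C57BL/6 VSL#3 value rests on colon columns of that table that were nearest to arrays of the opposite strain. In bulk tissue, fewer cells that express a gene and less RNA per cell cannot be told apart, here and for every difference below.

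The genes that followed Lgals2 most closely over the 40 arrays were Sis, Pdzk1, which encodes a scaffold protein of the brush border, and Myrfl, each with r = 0.995. These arrays share the contrast of tissues, and a high r over them describes that contrast. Less the mean of its group, Lgals2 moved in colon with the marker genes of small intestinal absorptive cells (r = 0.86 over 20 arrays with the mean of 5 markers), while in small intestine the same r was −0.02. Over all 40 arrays the closest genes by these deviations were Defa26, a Paneth cell defensin, with r = 0.89, and Apoa1, an apolipoprotein of absorptive cells, with r = 0.85. Within colon alone their r with Lgals2 was 0.92 and 0.91. The colon arrays with more Lgals2 also had more signal of these small intestinal genes. The summed signal of the absorptive markers in colon lay between 7.54 and 8.94 in BALB/c VSL#3, between 7.88 and 9.48 in BALB/c PBS, between 8.27 and 9.23 in C57BL/6 VSL#3 and between 7.62 and 9.42 in C57BL/6 PBS mice, and 1 of the 5 markers, Apoa4, was detected on none of the colon arrays.

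**Figure D1:**
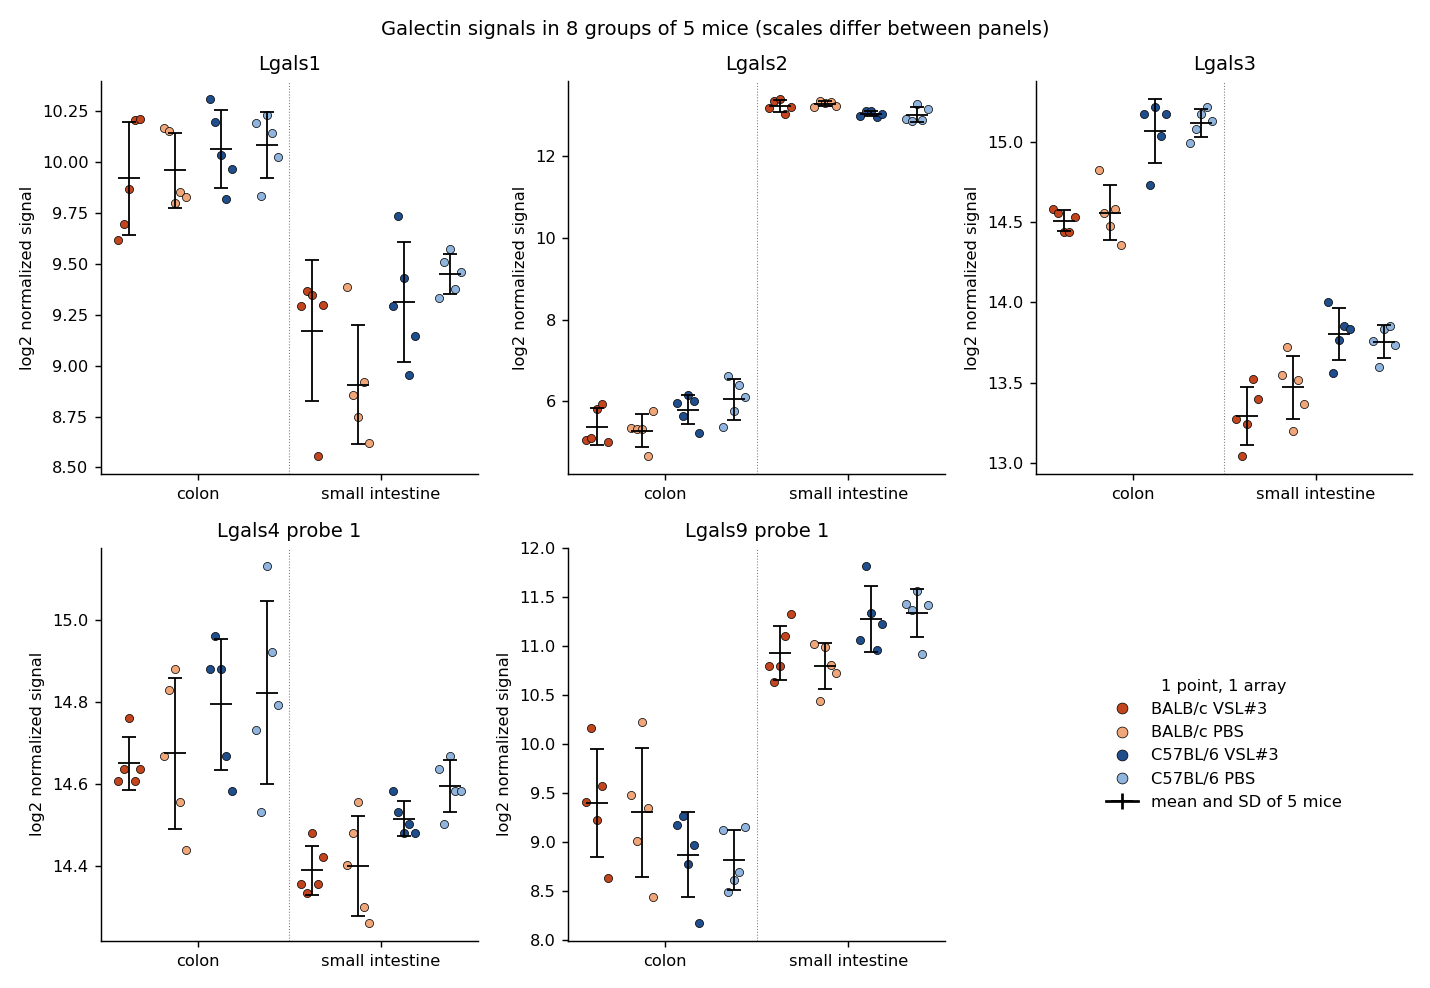
Log2 normalized signal (vertical axis) of 5 galectin probes in colon and small intestine, 1 point per array, coloured by strain and treatment, with the mean and SD of each group of 5 mice. Lgals2 and Lgals9 lie lower in colon, and Lgals1 and Lgals3 lie higher there. The 4 groups within a tissue overlap widely for most members, and Lgals3 in colon is the clearest separation of strains.

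Lgals3 was higher in colon. It was also higher in C57BL/6 than in BALB/c mice, though not past the test in small intestine of PBS mice. It encodes galectin-3, the chimera-type lectin. In colon it read 14.58, 14.56, 14.44, 14.44 and 14.53 in BALB/c VSL#3 mice and 14.83, 14.56, 14.48, 14.58 and 14.36 in BALB/c PBS mice. In C57BL/6 colon it read 15.18, 14.73, 15.22, 15.04 and 15.18 with VSL#3 and 14.99, 15.08, 15.18, 15.22 and 15.13 with PBS. The BALB/c and the C57BL/6 colon arrays did not overlap within a treatment.

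In small intestine Lgals3 read 13.27, 13.04, 13.24, 13.52 and 13.39 in BALB/c VSL#3 mice and 13.55, 13.72, 13.20, 13.51 and 13.37 in BALB/c PBS mice. In C57BL/6 small intestine it read 14.00, 13.56, 13.77, 13.85 and 13.84 with VSL#3 and 13.76, 13.60, 13.84, 13.85 and 13.73 with PBS. The strains did not overlap with VSL#3 and overlapped with PBS. Colon lay above small intestine in 20 of 20 mice, by 1.22 in BALB/c VSL#3, 1.09 in BALB/c PBS, 1.27 in C57BL/6 VSL#3 and 1.37 in C57BL/6 PBS mice (SE 0.08, limma, largest adjusted p 1.13e-09), between 2.13-fold and 2.58-fold. Lgals3 was among the brightest probes, at ranks between 4 and 147 of 25697 on an array, with raw intensities up to 40246 where the brightest probe of an array reached between 34794 and 55862. The top of the scale can compress such differences, and that part was not tested.

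Lgals3 was the member called most often between strains, in 3 of 4 comparisons. BALB/c minus C57BL/6 was −0.56 in colon of VSL#3 mice (SE 0.10, limma adjusted p 0.000715) and −0.56 in colon of PBS mice (SE 0.10, limma adjusted p 0.00064). It was −0.51 in small intestine of VSL#3 mice (SE 0.11, limma adjusted p 0.00369) and −0.29 in small intestine of PBS mice (SE 0.11, limma adjusted p 0.125), the last not past the test. With arrays scaled to a common median the colon difference of VSL#3 mice was −0.31 (adjusted p 0.0764) and the small intestinal one −0.40 (adjusted p 0.0686), both past the threshold no longer. Probe positions relative to strain variants were not analysed for any member, and Lgals3 had only 1 probe. Over the 40 arrays Lgals3 followed S100a1, Gprc5a and Rab15, with r between 0.96 and 0.97.

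Lgals1 was higher in colon than in small intestine. It encodes galectin-1, known for inducing death of activated T cells. In colon it read 9.62, 9.70, 9.87, 10.21 and 10.21 in BALB/c VSL#3 mice and 10.17, 10.15, 9.80, 9.85 and 9.83 in BALB/c PBS mice. In C57BL/6 colon it read 10.31, 10.20, 10.04, 9.82 and 9.97 with VSL#3 and 10.19, 9.83, 10.23, 10.14 and 10.02 with PBS. The 4 colon groups overlapped one another.

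In small intestine Lgals1 read 9.30, 9.37, 9.35, 8.55 and 9.30 in BALB/c VSL#3 mice and 9.39, 8.85, 8.75, 8.92 and 8.62 in BALB/c PBS mice. In C57BL/6 small intestine it read 9.29, 9.74, 9.43, 8.95 and 9.15 with VSL#3 and 9.33, 9.51, 9.57, 9.38 and 9.46 with PBS. Colon lay above small intestine in 20 of 20 mice, by between 0.32 and 1.65. The mean difference was 0.75 in BALB/c VSL#3, 1.05 in BALB/c PBS, 0.75 in C57BL/6 VSL#3 and 0.63 in C57BL/6 PBS mice (SE 0.14, limma, largest adjusted p 0.00115), between 1.55-fold and 2.08-fold. Its closest genes over the 40 arrays were Actg2, the enteric smooth muscle actin (r = 0.92), Csrp1 (r = 0.90) and Cd248, a marker of stromal cells (r = 0.88), values that again describe the contrast of tissues. By deviations from group means its closest genes were Vim, the mesenchymal filament vimentin (r = 0.68 over 40 arrays), and Mrap (r = 0.66). By the same deviations its r with the mean of the 11 smooth muscle and fibroblast markers was −0.09 over the 20 colon arrays and 0.33 over the 20 small intestinal arrays, and with the adipocyte markers 0.02 in colon and 0.60 in small intestine. Between tissues the 11 smooth muscle and fibroblast markers moved the same way as Lgals1, with 9 higher and 0 lower in colon in PBS mice of either strain. Of all genes, 24.2% were higher in colon in BALB/c PBS and 25.2% in C57BL/6 PBS mice. The markers' summed signals lay between 15.71 and 16.22 over the colon arrays of PBS mice and between 14.47 and 15.42 over their small intestinal arrays. The part of these markers in the tissue difference of Lgals1 was not tested.

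In PBS mice Lgals1 was also lower in BALB/c than in C57BL/6 small intestine, by −0.54 (SE 0.17, limma adjusted p 0.0384). Only BALB/c PBS replicate 1, at 9.39, reached into the C57BL/6 range. This call was lost when any of 8 of the 10 mice was left out, namely BALB/c PBS replicates 2, 3, 4 and 5 and C57BL/6 PBS replicates 2, 3, 4 and 5, with differences over all such fits between −0.66 and −0.47 and adjusted p up to 0.112. In the same comparison 4 of the 11 smooth muscle and fibroblast markers were lower and 0 higher, where 10.9% of all genes passed, 5.66% lower. The median of the adipocyte markers (2 of 5 measured) was −0.99, and 0 of them passed the test. The part of either set of markers in the Lgals1 difference was not tested. With VSL#3 the strain difference of Lgals1 in small intestine was −0.14 (SE 0.17, limma adjusted p 0.65).

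Lgals4, the brush border galectin, was bright in both tissues and slightly higher in colon. Its brightest probe, used for the gene, averaged 14.65 ± 0.06 in BALB/c VSL#3, 14.67 ± 0.18 in BALB/c PBS, 14.79 ± 0.16 in C57BL/6 VSL#3 and 14.82 ± 0.22 in C57BL/6 PBS colon (SD, n = 5 each). In small intestine it averaged 14.39 ± 0.06 in BALB/c VSL#3, 14.40 ± 0.12 in BALB/c PBS, 14.52 ± 0.04 in C57BL/6 VSL#3 and 14.59 ± 0.06 in C57BL/6 PBS mice (SD, n = 5 each). Colon and small intestinal arrays overlapped in BALB/c PBS and C57BL/6 PBS mice and met at 14.58 in C57BL/6 VSL#3 mice, and neighbouring groups in the order of means overlapped throughout. Within mice, however, colon was the higher in 20 of 20 by this probe, by 0.26 in BALB/c VSL#3, 0.27 in BALB/c PBS, 0.28 in C57BL/6 VSL#3 and 0.23 in C57BL/6 PBS mice (SE 0.07, limma adjusted p between 0.00243 and 0.0105), at most 1.21-fold. The other 2 probes gave mean differences between 0.22 and 0.42, each past the test, with colon the higher in 20 of 20 mice by the second probe and in 18 of 20 by the third.

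These Lgals4 differences depended on the scaling. With arrays scaled to a common median they were 0.11, 0.15, 0.07 and 0.05 in the same order of groups (limma adjusted p between 0.133 and 0.674), and without C57BL/6 PBS replicate 3 the value of that group was 0.17 (adjusted p 0.0737). Under median scaling the median of all genes was between 0.01 and 0.11 in these comparisons. Lgals4 ranked between 6 and 36 of 25697 probes on an array, so the compression named for Lgals3 applies to it too. One of its 3 probes is annotated to a transcript that the RefSeq gene table does not list for Lgals4. Some mouse strains carry Lgals6, a near-identical copy, so reads of the Lgals4 probes may include that copy and the gene's strain values are uncertain. Lgals4 passed the test in no strain comparison by any of its 3 probes. By the probe used for the gene, BALB/c minus C57BL/6 lay between −0.19 and −0.13 in the 4 comparisons. By the second probe it lay between −0.15 and −0.07, and by the third between −0.33 and 0.03. Over the 40 arrays the probe used for Lgals4 followed Rpl39, a ribosomal protein gene, Cdx1, an intestinal homeobox gene, and Wls, with r between 0.83 and 0.84.

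Lgals9 was lower in colon than in small intestine in every group. In colon the brighter of its 2 probes, used for the gene, read 9.41, 10.16, 9.22, 9.57 and 8.63 in BALB/c VSL#3 mice and 9.48, 9.01, 10.23, 9.35 and 8.44 in BALB/c PBS mice. In C57BL/6 colon it read 9.17, 9.26, 8.78, 8.97 and 8.17 with VSL#3 and 9.12, 8.49, 8.61, 8.69 and 9.15 with PBS. The strains overlapped, and the BALB/c colon groups had the widest spread of any Lgals9 group, with an SD of 0.55 with VSL#3 and 0.66 with PBS.

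In small intestine Lgals9 read 10.80, 10.63, 10.80, 11.10 and 11.33 in BALB/c VSL#3 mice and 11.03, 10.44, 10.99, 10.81 and 10.72 in BALB/c PBS mice. In C57BL/6 small intestine it read 11.06, 11.82, 11.34, 10.96 and 11.22 with VSL#3 and 11.43, 11.37, 11.57, 10.92 and 11.42 with PBS. Every small intestinal array lay above every colon array. Colon minus small intestine was −1.53 in BALB/c VSL#3, −1.50 in BALB/c PBS, −2.41 in C57BL/6 VSL#3 and −2.53 in C57BL/6 PBS mice (SE 0.23, limma, largest adjusted p 2.35e-05), between 2.82-fold and 5.76-fold lower in colon. The second probe gave differences between −2.77 and −1.60. Its closest genes over the 40 arrays were Btnl2, Mocos and Insl6, with r between 0.95 and 0.96.

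The strain difference of Lgals9 had opposite signs in the 2 tissues. In colon BALB/c minus C57BL/6 was 0.53 in VSL#3 mice and 0.49 in PBS mice (SE 0.29, limma adjusted p 0.282 and 0.343), neither past the test. In small intestine it was −0.35 in VSL#3 mice (SE 0.17, limma adjusted p 0.197) and −0.54 in PBS mice (SE 0.17, limma adjusted p 0.0409). The second probe gave −0.45 (limma adjusted p 0.0232 over probes) in VSL#3 mice and −0.63 (limma adjusted p 0.00178 over probes) in PBS mice, both past the test. For the first probe the call in PBS mice was lost when any of 7 of the 10 mice was left out, namely BALB/c PBS replicates 2, 4 and 5 and C57BL/6 PBS replicates 1, 2, 3 and 5, with differences over all such fits between −0.65 and −0.45 and adjusted p up to 0.108. The difference between the strains' tissue gaps in PBS mice was 1.03 (SE 0.33, limma adjusted p 0.1), and 1.16 (SE 0.33, limma adjusted p 0.0675 over probes) for the second probe, so the opposite signs did not pass a test of their own.

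Pooled over the 4 groups, Lgals9 moved with interferon-inducible genes within colon, though not on all arrays and not with these genes alone. Less group means, its r with the mean of 10 interferon genes was 0.72 over the 20 colon arrays and 0.28 over the 20 small intestinal arrays, and over the 40 arrays its closest gene was Ifit2, an interferon-inducible RNA-binding gene, with r = 0.78. In BALB/c PBS colon both deviations had the same sign on every array. In C57BL/6 PBS colon they had opposite signs in replicates 1, 4 and 5. Over the colon arrays Lgals9 also had an r of 0.53 with goblet cell and 0.49 with T cell markers. With colonocyte markers its r was −0.54, and with smooth muscle and fibroblast markers −0.52. Among the 10 genes are Irf7, a transcription factor of the pathway, the ubiquitin-like gene Isg15 and the chemokine gene Cxcl10. Between strains, 0 of 10 passed the test in colon of PBS mice, with a median of 0.92, where 11.8% of all genes passed. In small intestine of PBS mice 3 of 10 were lower in BALB/c and 0 higher, with a median of −0.63. There 10.9% of all genes passed, 5.66% lower. Those 3 were Gbp2 (−0.91), Ifit3 (−1.26) and Cxcl10 (−1.04). In VSL#3 mice 1 of 10 was higher and 0 lower in either tissue, with a median of 0.66 in colon and 0.19 in small intestine. These counts lie near the shares of all genes, 11.1% in colon and 12.5% in small intestine. Lgals9 had the sign of the list's median in both tissues of PBS mice and in colon of VSL#3 mice, and the opposite sign in small intestine of VSL#3 mice. Whether the list bears on the Lgals9 values was not tested.

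**Figure D2:**
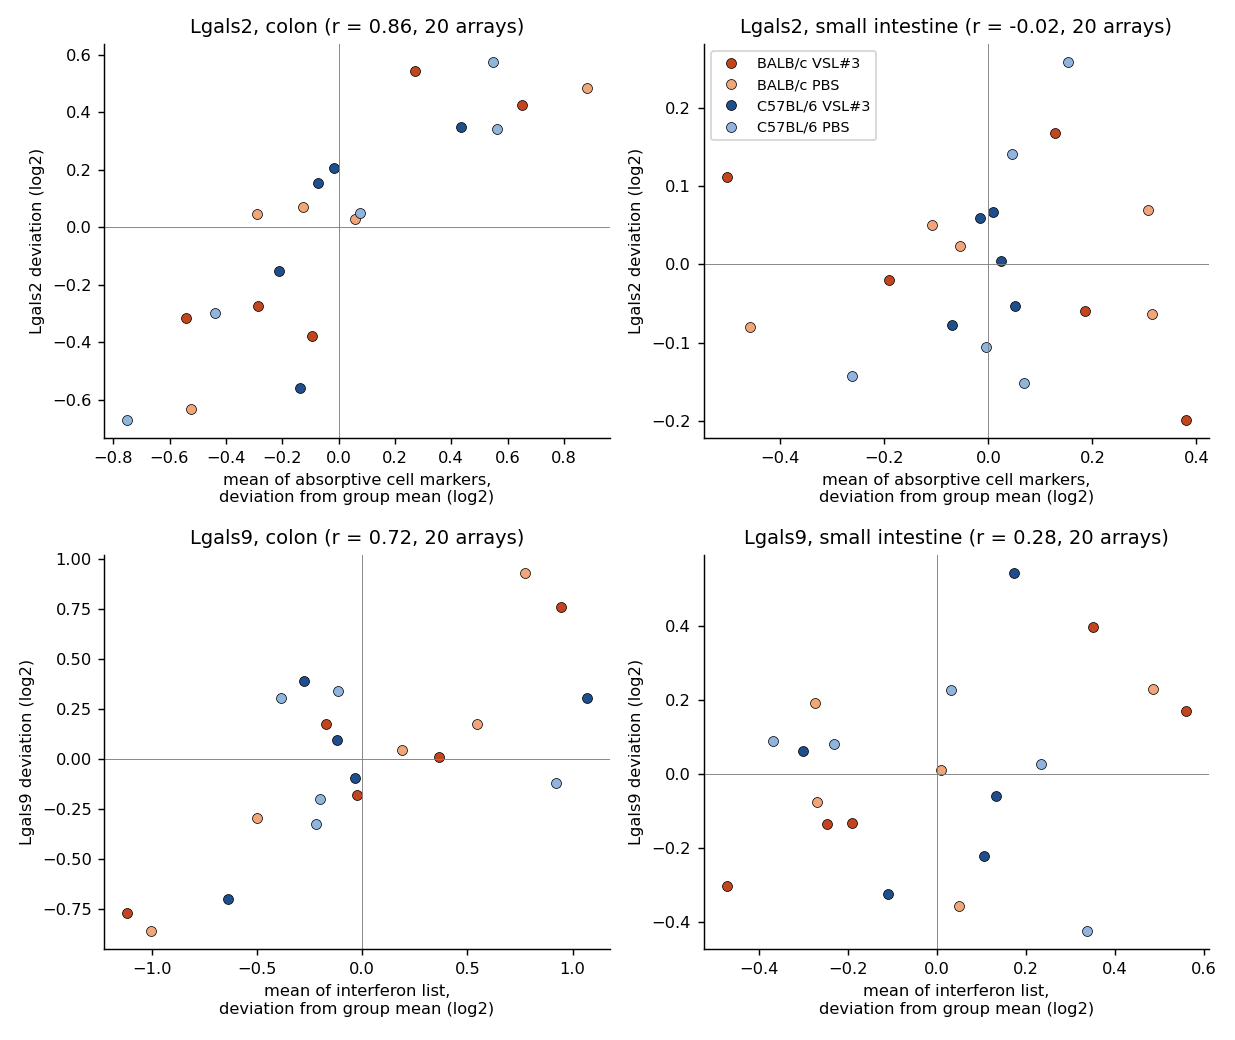
Deviation of each array from the mean of its group, in log2, for Lgals2 against the mean of 5 absorptive cell markers (top) and for Lgals9 against the mean of 10 interferon genes (bottom), in colon (left) and small intestine (right), 20 arrays a panel. Over the 20 colon arrays r is 0.86 for Lgals2 and 0.72 for Lgals9, with the widest shared Lgals9 deviations in BALB/c mice. In small intestine r is −0.02 and 0.28.

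Set side by side between colon and small intestine, 5 of 5 members passed the test in each of the 4 groups, 3 higher in colon (Lgals1, Lgals3, Lgals4) and 2 lower (Lgals2, Lgals9). Of all 9200 genes tested in both tissues, 42.2% passed in BALB/c VSL#3 mice (22.9% higher in colon, 19.3% lower), 41.4% in BALB/c PBS mice (24.2% higher, 17.2% lower), 44.1% in C57BL/6 VSL#3 mice (25.4% higher, 18.8% lower) and 43.4% in C57BL/6 PBS mice (25.2% higher, 18.2% lower). The members were chosen with earlier results of these data known, so their counts beside these shares are a description. The 2 prototype members went opposite ways. Lgals2 and Lgals1 lie close together on chromosome 15, with Gga1, Sh3bp1 and Pdxp between them in the RefSeq gene order. Each of these 3 genes was past the test between tissues in none of the 4 groups, with differences between −0.43 and 0.22.

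**Figure D3:**
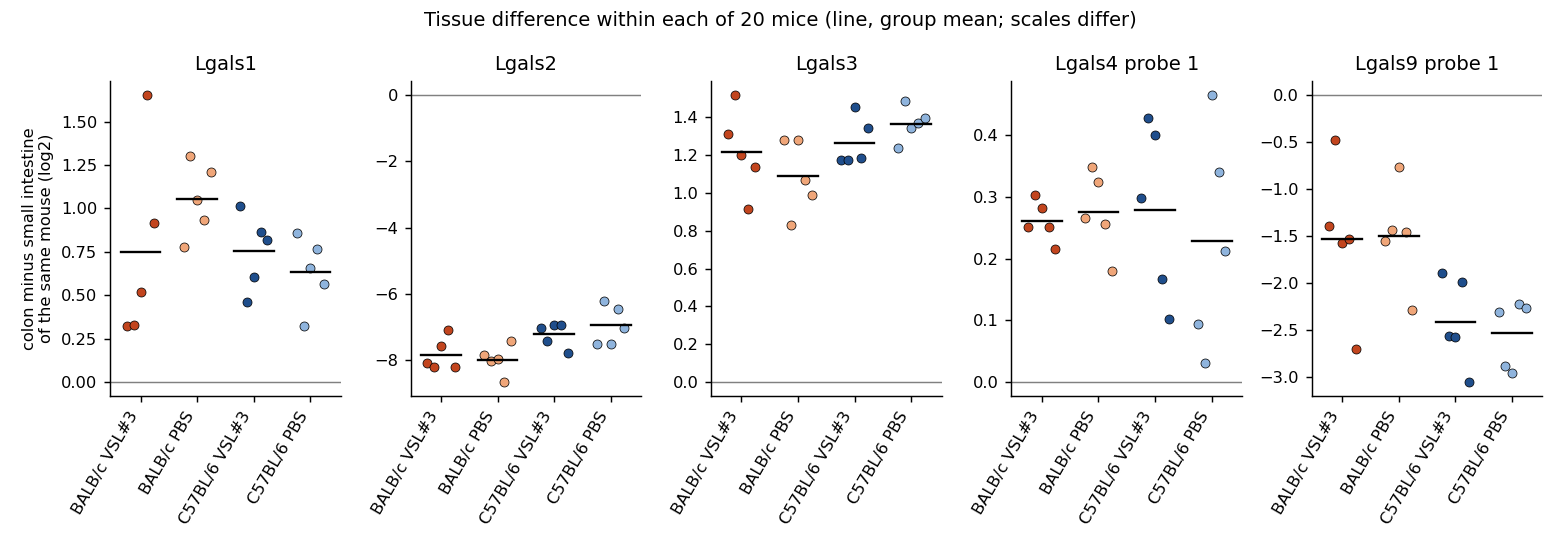
Colon minus small intestine of the same mouse (log2, vertical axis) for 5 galectin probes, 1 point per mouse, with the mean of each of 4 groups as a line and 0 in grey. All 20 mice lie above 0 for Lgals1, Lgals3 and Lgals4 probe 1 and below 0 for Lgals2 and Lgals9 probe 1.

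Between strains, fewer members passed. In colon of VSL#3 mice 1 of 5 was lower in BALB/c than in C57BL/6 and 0 higher (Lgals3), where 11.1% of all 9833 genes passed, 5.36% higher and 5.74% lower. In colon of PBS mice 2 of 5 were lower (Lgals2, Lgals3), where 11.8% of all genes passed, 6.08% higher and 5.76% lower. In small intestine of VSL#3 mice 1 of 5 was lower (Lgals3), where 12.5% of all 9634 genes passed, 6.49% higher and 6.06% lower. In small intestine of PBS mice 2 of 5 were lower (Lgals1, Lgals9), where 10.9% passed, 5.26% higher and 5.66% lower. With 5 members, 1 or 2 calls lie too close to these shares to set the family apart. The Lgals2 call in colon of PBS mice was at the threshold, with BALB/c minus C57BL/6 at −0.77 (SE 0.25, limma adjusted p 0.0499). It was lost when any of 7 of the 10 mice was left out, namely BALB/c PBS replicates 1, 2, 3 and 4 and C57BL/6 PBS replicates 2, 4 and 5, with differences over all such fits between −0.93 and −0.61 and adjusted p up to 0.149. With the mean of the absorptive markers as a covariate, chosen after seeing the data, the Lgals2 difference was −0.65 (limma adjusted p 0.00362). This covariate moved with Lgals2 on the same colon arrays (r = 0.86 less group means), which narrows the remaining spread. The smaller p is therefore no added support for the call, and the part of these markers in the difference was not tested. In small intestine Lgals2 had the other sign, 0.20 in VSL#3 mice and 0.27 in PBS mice (SE 0.10, limma adjusted p 0.217 and 0.0917). The difference between the strains' tissue gaps in PBS mice was −1.03 (SE 0.28, limma adjusted p 0.0524) for Lgals2, where 3.08% of all 9200 genes passed, 1.5% higher and 1.58% lower, and 0 of 5 members did. This value was past the threshold without BALB/c PBS replicate 5 (−1.17, adjusted p 0.0407), without C57BL/6 PBS replicate 1 (−1.17, adjusted p 0.0386) and without C57BL/6 PBS replicate 3 (−1.17, adjusted p 0.0396).

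The comparisons of strains with PBS and of strains with VSL#3 use different mice. Mice with title numbers 1 to 3 carry the letter A in their source code and the others the letter B, with no statement of what the letter is. In PBS mice, BALB/c minus C57BL/6 within letter A and within letter B was −0.46 and −0.71 for Lgals3 in colon, −0.59 and −1.04 for Lgals2 in colon, −0.47 and −0.65 for Lgals1 in small intestine, and −0.64 and −0.40 for Lgals9 in small intestine. In VSL#3 mice it was −0.52 and −0.62 for Lgals3 in colon and −0.59 and −0.39 in small intestine. The Lgals9 difference in colon of PBS mice, which did not pass the test, was 0.83 within letter A and −0.03 within letter B. The pooled values are made of these parts, so their shared sign is a description, and whether the letter bears on the values was not tested by it.

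Per its title, the study set the effects of VSL#3 on gut immunity in healthy mice of the strains against each other. For the galectins no difference between VSL#3 and PBS was detected. The members passing were 0 of 5 in each strain and tissue, as were 0% of all genes tested (0 of 9833 in colon and 0 of 9634 in small intestine by limma). By the probe used for each gene, no member had an unadjusted p under 0.05, where between 337 and 633 of all genes did in a comparison. The third Lgals4 probe did so in C57BL/6 colon, at 0.29 (limma p 0.0231, adjusted p 0.741 over probes). The values below are those of the probes used for the genes. In BALB/c colon, VSL#3 minus PBS lay between −0.05 and 0.10 over the 5 members, with 95% intervals reaching from −0.51 to 0.70, both bounds those of Lgals9. The smallest p there was that of Lgals3, at −0.05 (limma adjusted p 0.998). In C57BL/6 colon the differences lay between −0.26 and 0.05, with intervals from −0.77 (Lgals2) to 0.66 (Lgals9), and the smallest p was that of Lgals2 (−0.26, limma adjusted p 0.913).

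In BALB/c small intestine the differences lay between −0.18 and 0.27, with intervals from −0.41 (Lgals3) to 0.61 (Lgals1). Lgals1 had the smallest p (0.27, limma adjusted p 0.88). In C57BL/6 small intestine they lay between −0.14 and 0.05, with intervals from −0.49 (Lgals1) to 0.29 (Lgals9), and the smallest p was that of Lgals4 (−0.08, limma adjusted p 0.998). With the effect averaged over the strains, the lowest and highest interval bounds over members were −0.45 and 0.50 in colon, and −0.23 and 0.31 in small intestine. The effect of VSL#3 in BALB/c minus that in C57BL/6 also passed for 0 of 5 members, with the smallest p that of Lgals2 in colon (0.35, limma adjusted p 1) and of Lgals1 in small intestine (0.40, limma adjusted p 0.91). In simulated BALB/c VSL#3 colon data, 50 genes each were given a true log2 difference of 0.25, 0.5, 1 or 2. Of these, 38% were called at 0.5 and 88% at 1. An adjusted threshold is easier to pass where many genes change, and in the measured data 0 genes passed. The shares called are therefore too high for a change of a few genes, and no treatment difference was simulated in small intestine. Changes of galectin RNA of these sizes or smaller may have been missed.

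**Figure D4:**
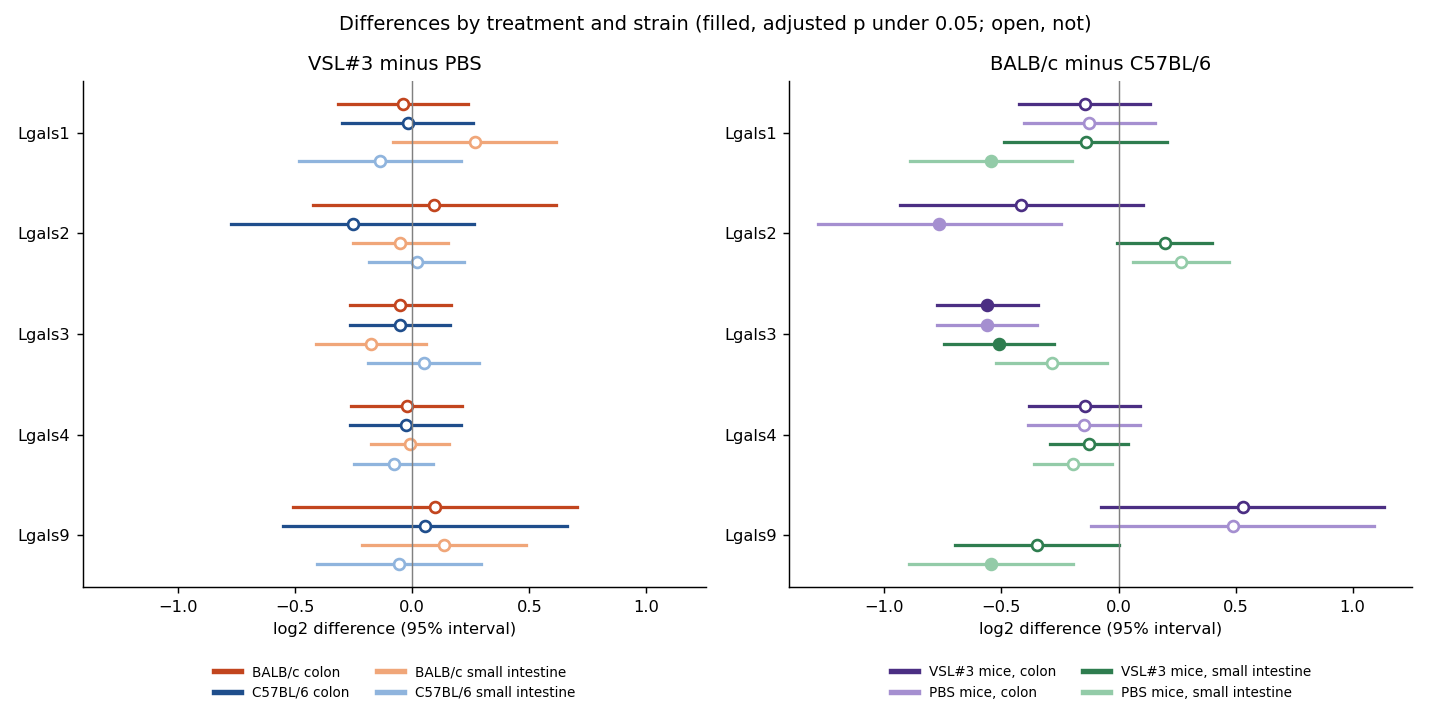
Log2 difference with its 95% interval (horizontal axis) for 5 galectin genes, VSL#3 minus PBS on the left and BALB/c minus C57BL/6 on the right, each in 4 comparisons. All VSL#3 intervals include 0. Filled points, past an adjusted p of 0.05, are Lgals3 in 3 strain comparisons and Lgals1, Lgals2 and Lgals9 in 1 each.

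The group means of each member were ordered by tissue first. For Lgals1, Lgals3 and Lgals4 the 4 colon groups came above the 4 small intestinal groups, and for Lgals2 and Lgals9 the reverse held. Neighbouring groups in this order overlapped in range, except at the step from one tissue to the other for Lgals1, Lgals2, Lgals3 and Lgals9. Groups that are not neighbours could still overlap across tissues, as Lgals1 in C57BL/6 VSL#3 small intestine, up to 9.74, did with BALB/c VSL#3 colon, down to 9.62. Less group means, members went their own ways: over the 40 arrays pairs of probes of different members had r between −0.20 and 0.45, while the 2 Lgals9 probes had an r of 0.84 and the 3 Lgals4 probes r between 0.27 and 0.62.

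Of 7 other galectin and galectin-related genes listed, 5 were on the array, and 3 passed the filter in both tissues: Lgals8, a tandem-repeat galectin, Lgalsl, a galectin-related gene, and Lgals3bp, which encodes a secreted glycoprotein that binds galectin-3. In C57BL/6 PBS mice, where 43.4% of all genes passed, all 3 differed between tissues, Lgals3bp by −1.03 and Lgals8 by −0.42 (lower in colon) and Lgalsl by 0.37 (higher). In BALB/c PBS mice, where 41.4% of all genes passed, none of the 3 did, with −0.24, −0.10 and 0.08. With 3 genes and such shares, these counts do not set the list apart. None of the 3 passed the test of the difference between these strains (smallest limma adjusted p 0.118).

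Genes that build the sugar chains galectins bind, from branching and galactosylation enzymes to poly-N-acetyllactosamine synthases, had 16 tested members between tissues. In BALB/c VSL#3 mice 7 were higher in colon and 0 lower, in BALB/c PBS 6 and 1, in C57BL/6 VSL#3 6 and 0, and in C57BL/6 PBS 6 and 1. The list's shares past the test, between 37.5% and 43.8%, lay near the shares of all genes. In PBS mice the largest calls were B3gnt7 (4.27 in BALB/c, 3.15 in C57BL/6) and B3gnt5 (3.10 and 3.34), both N-acetylglucosaminyltransferases, and Gcnt1, a core branching enzyme (2.39 and 1.05). Between strains in small intestine of PBS mice 4 of 17 were lower in BALB/c and 0 higher (23.5%, against 10.9% of all genes, 5.66% lower), led by B3gnt3 (−2.13), Gcnt1 (−1.83) and Mgat3 (−1.34).

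Genes of receptors that galectins bind had 13 tested members between tissues. In PBS mice 2 were higher and 4 lower in BALB/c colon than small intestine, and 3 higher and 5 lower in C57BL/6. Itga5, an integrin chain, was higher in colon (0.94 in BALB/c, 1.17 in C57BL/6), and P4hb, a disulfide isomerase bound by galectin-9, was lower (−0.71 and −0.58). These are 46.2% of the list in BALB/c and 61.5% in C57BL/6, against 41.4% and 43.4% of all genes. Between strains, 0 of 14 were higher and 2 lower in BALB/c than in C57BL/6 colon with VSL#3 (14.3%, against 11.1% of all genes), and 2 were higher and 2 lower with PBS (28.6%, against 11.8% of all genes). The higher ones with PBS were Cd40, a costimulatory receptor (1.02), and Ptprc, the leukocyte phosphatase CD45 (1.08). Egfr, the epidermal growth factor receptor, was lower in BALB/c than in C57BL/6 colon with VSL#3 (−0.51) and with PBS (−0.47). Cd44, a hyaluronan receptor that galectin-9 and galectin-3 bind, was lower there too, by −0.57 with VSL#3 and −0.50 with PBS (limma adjusted p 0.0202 and 0.0433).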

How the data were processed

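Per the labels' protocols, 500 ng of total RNA per sample was amplified and 750 ng of biotinylated cRNA was hybridized to Illumina MouseRef-8 arrays. The authors deposited intensity values that were not normalized between arrays. Between 21.4% and 25.1% of the values on an array lie below 0, so a background had already been subtracted. Beside each intensity the authors deposited a fraction headed as a detection p-value, which is near 1 for bright probes and was read as 1 minus that p. The authors also deposited a log2 table, quantile-normalized as its values show, which served as an alternative only. The submitters' processing notes name limma, with no role or version, and further steps are not given in the sources used here.

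Intensities were corrected with limma's nec (offset 16), quantile-normalized and taken to log2 (R 4.3.3, limma 3.58.1). Probes with a detection p under 0.05 on at least 5 arrays were kept, and a gene was represented by its brightest kept probe, over the 40 arrays. Of the 25697 probes, 23978 have 1 gene symbol in the platform annotation and 1719 have none or several. Each tissue was fitted over its 4 groups, and tissues were compared on the differences within mice, with limma's moderated test and Benjamini-Hochberg adjustment over all genes, in 17 contrasts. Calls are at an adjusted p under 0.05. The procedure was tested on simulated data. The number of arrays, 5 per group, limits the precision. Replicates are separate mice per the labels. Named genes were the members, the 3 genes closest to each member over the arrays and the 2 closest by deviation from group means, and called genes of listed pathways. Members and lists were chosen with earlier results of these data known. Alternatives were 13 other settings, 1 of them chosen after seeing the data, and leaving out each of 20 mice.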

Additional observations from a re-analysis of the deposited data

Results flagged for a closer look

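In each of 64 sets of 5 arrays (8 probes in 8 groups), the gap of the farthest array to its neighbour was set against the range of the group. An array lay beyond Dixon's limit in 3 sets. Chance gives about 1 set in 20, so 3 of 64 is near the number that chance gives. Lgals1 in small intestine of BALB/c VSL#3 mice read 8.55 in replicate 4, against 9.30 to 9.37 in the other mice. Lgals4 in colon of BALB/c VSL#3 mice read 14.76 by its brightest probe in replicate 3, against 14.61 to 14.64 in the others. Its second probe read 13.84 on the same array, against 14.10 to 14.18, so the 2 probes departed in opposite directions there.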

How the results depend on the processing

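The tissue calls of Lgals1, Lgals2, Lgals3 and Lgals9 kept their direction and passed in all 9 alternatives and with each of the 5 mice of a group left out. All 5 members were recomputed between tissues and strains, and in each comparison of treatments the member with the smallest p. Over these differences and settings, 507 values kept their direction and their side of the threshold under the alternatives other than leaving out a mouse, 24 were no longer past it, 3 newly passed and 9 reversed. The cause of these changes was not tested, beyond the crossed columns named below. For BALB/c minus C57BL/6 in colon of PBS mice, the number of members called was 2 and became 1 with no background correction, median scaling, the authors' deposited table, no detection filter, every probe on its own, the letter as a covariate or only the 2 groups compared, and lay between 1 and 2 with a mouse left out. In small intestine of PBS mice it was 2 and became 0 with no background correction, median scaling, the authors' deposited table or no detection filter and 3 with an intensity trend, which added Lgals2, and lay between 0 and 2 with a mouse left out. In VSL#3 mice it was 1 in each tissue and became 0 under median scaling. For the strains' difference of tissue gaps it was 0, became 1 with a stricter detection filter, and lay between 0 and 1 with a mouse left out.

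The labels do not say what same-numbered mice of different groups share. Their deviations had a mean r of 0.160 between VSL#3 and PBS in BALB/c colon, above 0.1 in 4 of 5 pairs. The mean r was 0.140 between the strains in colon with VSL#3, above 0.1 in 2 of 5 pairs. In the other comparisons between groups the mean r lay between −0.155 and 0.025. With the replicate number as a block, 1 member was called between strains in colon of PBS mice and 1 in small intestine of PBS mice. Without the pairing of colon and small intestine of a mouse, 1 member (Lgals2) was called for the strains' difference of tissue gaps. Deviations of the 2 tissues of a mouse had a mean r of 0.160, above 0.1 in 14 of 20 mice.

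In the authors' deposited table, whose VSL#3 colon columns are nearest to arrays of the opposite strain, 1 member was called for VSL#3 minus PBS in BALB/c colon, 1 in C57BL/6 colon and 1 for the difference of the strains' effects in colon. There Lgals3 was 0.53 for VSL#3 minus PBS in BALB/c colon, and BALB/c minus C57BL/6 in colon of VSL#3 mice was 0.15 for Lgals1, 0.71 for Lgals2, 0.58 for Lgals3, 0.15 for Lgals4 and −0.55 for Lgals9, each with the sign reversed. Median scaling reversed Lgals3 for VSL#3 minus PBS in BALB/c colon (0.0535), Lgals4 between strains in colon of VSL#3 mice (0.0298) and Lgals1 between strains in small intestine of VSL#3 mice (0.0141). With a mouse left out, these values lay between −0.10 and 0.0164 for Lgals3 (VSL#3 minus PBS, BALB/c colon), between −0.23 and 0.0148 for Lgals1 (strains, small intestine, VSL#3), the high end without BALB/c VSL#3 replicate 4, and between −0.00309 and 0.11 for Lgals4 (strains' difference of tissue gaps). Of the differences that reversed, only Lgals3 between strains in colon of VSL#3 mice had passed the test in the values reported. Dim signal limits Lgals2 in colon, and brightness near the top of the scale limits Lgals3 and Lgals4.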

Other observations

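Sialyltransferases cap the galactose that galectins bind. In PBS mice 3 of 6 tested were higher in colon than in small intestine of BALB/c mice and 0 lower, and 3 were higher and 1 lower in C57BL/6 mice. These are 50% and 66.7% of the list, against 41.4% and 43.4% of all genes. St3gal3 was higher in colon by 3.17 in BALB/c and 3.29 in C57BL/6, St3gal6 by 1.70 and 3.29, and St6gal1 by 1.45 in C57BL/6 mice and likewise past the test in BALB/c. St3gal4 was lower in colon of C57BL/6 PBS mice (−1.97). Between strains, 1 was higher and 2 lower in BALB/c than in C57BL/6 colon of PBS mice, and 1 was higher and 1 lower in small intestine. These are 50% of the 6 genes in colon, against 11.8% of all genes, and 33.3% in small intestine, against 10.9%. St3gal4 was lower in both tissues, by −3.37 in colon and −5.70 in small intestine, and St3gal1 was lower in colon (−1.26). St6gal1 was higher in colon (0.55) and St3gal6 in small intestine (1.54). The strains' tissue gaps differed for St3gal4 (2.33, limma adjusted p 7.79e-06) and St3gal6 (−1.58, limma adjusted p 1.03e-06), and among the enzymes that build galectin ligands for Gcnt1 (1.34, limma adjusted p 0.00079) and B3gnt3 (0.84, limma adjusted p 0.00277). Probe positions relative to strain variants were not analysed here.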
